A study of Mus musculus with 15 samples.

Results

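The clustered protocadherins are a family of neural adhesion genes that lie side by side on 1 chromosome, and their transcripts were followed here in 15 mouse brain tumours. The members are all genes whose symbol names an alpha, beta or gamma clustered protocadherin, which gave 58 of the 54232 genes listed. Of these, 14 belong to the alpha cluster (12 variable genes and the c-type genes Pcdhac1 and Pcdhac2), 22 to the beta cluster and 22 to the gamma cluster (12 of type A, 7 of type B and the 3 c-type genes Pcdhgc3, Pcdhgc4 and Pcdhgc5). In mm10 they lie on the plus strand of chromosome 18, the alpha genes from 36930184 to 37187661, the beta genes from 37264938 to 37524479 and the gamma genes from 37661793 to 37841873. Gene names and positions are those of GENCODE vM21.

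Clustered protocadherins are cell-surface proteins that bind the same isoform on a neighbouring cell, and in neurons the mixture of isoforms on a cell serves as an identity tag for self-avoidance. Each variable alpha and gamma exon has its own promoter and is spliced to constant exons shared by its cluster, whereas each beta gene is a single exon. Promoters of variable exons are used at random in single neurons, with DNA methylation and looping by CTCF and cohesin setting the choice, while c-type promoters are used more uniformly. The family is known from neurons, and glial cells also express members of it.

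All mice carried Nestin Tv-a, a transgene that puts an avian virus receptor on Nestin-expressing progenitors, and p53 fl/fl on a C57BL/6 background. Chicken DF-1 cells injected into the cortex made RCAS viruses for Cre recombinase, for PDGFA, a growth factor, and for histone H3.3 joined to GFP, so that every group, controls included, had floxed p53 and added PDGFA. Mice that also carried ATRX fl/fl received either the mutant histone (ATRXfl_G34R, 4 tumours) or the wild-type one (ATRXfl_WT, 4 tumours). Mice with intact Atrx likewise received H3.3G34R (p53_G34R, 3 tumours) or H3.3 of wild type (p53_WT, 4 tumours). ATRX is a chromatin remodeller that helps place H3.3, and the G34R substitution occurs in human gliomas. Tumours were taken from the frontal cortex at the functional end point, and ages of the mice are not stated in the labels used. The labels do not state whether the libraries, called tumours here, are from different mice, and p-values therefore measure the spread between libraries, which may in part be technical.

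Libraries held 22807315 to 35679129 reads in genes, and values are reads divided by a size factor per library (normalized counts). Atrx, the targeted gene, stood at 2376 ± 619 normalized counts in floxed tumours (SD, n = 8, range 1346 to 3124) and at 6687 ± 1395 in intact tumours (SD, n = 7, range 5143 to 8540), with a 2-sided exact permutation p = 0.000311, the smallest that this design can give. One library stood apart from its label as a tumour. In p53_WT replicate 3 the 10 mature neuron markers summed to 231152 normalized counts, against 537 to 16853 in the other 14 tumours, and the 5 oligodendrocyte progenitor markers (Pdgfra, Cspg4, Olig1, Olig2 and Sox10) summed to 22044, against 140376 to 352234. This library, called rich in neuron markers below, was also the highest for astrocyte markers (233247, against at most 62056). The same held for mature oligodendrocyte markers (100802, against at most 93900) and for microglia and macrophage markers (27692, against at most 15057). ATRXfl_G34R replicate 3 held the 16853 counts of neuron markers, and the sums of the other 13 tumours ended at 4543. In bulk tumours, fewer cells of a type and less RNA per cell cannot be told apart.

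As a family, the clustered protocadherins were well expressed in the tumours and very uneven between them. The 58 genes together summed to 21511, 24360, 26225 and 11147 normalized counts in ATRXfl_G34R tumours, 15646, 21395, 27525 and 29014 in ATRXfl_WT tumours, 11967, 28715 and 29853 in p53_G34R tumours and 35355, 12095, 18866 and 13907 in p53_WT tumours. Each group thus held at least 1 tumour at 15646 or lower and at least 1 at 26225 or higher, and the highest tumour was 3.17-fold above the lowest. The gamma cluster contributed a median of 12658 normalized counts over the 15 tumours, the beta cluster 8889 and the alpha cluster 815. These sums are not scaled for the number of genes or the length of exon read in each cluster.

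The alpha cluster was the least expressed and the most variable. Its 14 genes summed to 805, 1040, 879 and 277 normalized counts in ATRXfl_G34R tumours, 289, 532, 828 and 987 in ATRXfl_WT tumours, 185, 815 and 939 in p53_G34R tumours and 946, 283, 1565 and 422 in p53_WT tumours. The group means were 750 ± 330 in ATRXfl_G34R tumours, 659 ± 310 in ATRXfl_WT tumours, 646 ± 404 in p53_G34R tumours and 804 ± 582 in p53_WT tumours (SD, n as above), and all groups overlapped. The highest p53_WT value is that of the library rich in neuron markers. The log2 difference of the sums between ATRXfl_G34R and p53_WT was 0.05 with that library and 0.47 without it, that between ATRXfl_WT and p53_WT was -0.12 with it and 0.30 without it, and that between p53_G34R and p53_WT was -0.31 with it and 0.11 without it.

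Beta genes, which encode protocadherins without the shared intracellular tail of the alpha and gamma proteins, summed to 8877 ± 2918 normalized counts in ATRXfl_G34R tumours, 9916 ± 2479 in ATRXfl_WT tumours, 9940 ± 4199 in p53_G34R tumours and 8550 ± 6887 in p53_WT tumours. Single tumours held 8532, 8889, 12605 and 5481 in the ATRXfl_G34R group, 6944, 8912, 12492 and 11315 in the ATRXfl_WT group, 5232, 11290 and 13298 in the p53_G34R group and 18859, 5702, 4643 and 4995 in the p53_WT group. The p53_WT group therefore held both the highest and the lowest beta sum of the series, and the lowest was that of the library rich in neuron markers. Gamma genes summed to 11184 ± 3981 in ATRXfl_G34R tumours, 12820 ± 3524 in ATRXfl_WT tumours, 12925 ± 5543 in p53_G34R tumours and 10702 ± 4216 in p53_WT tumours, again with overlap between all groups. No p is given for these sums, because the genes were chosen with earlier results of these data known.

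**Figure D1:**
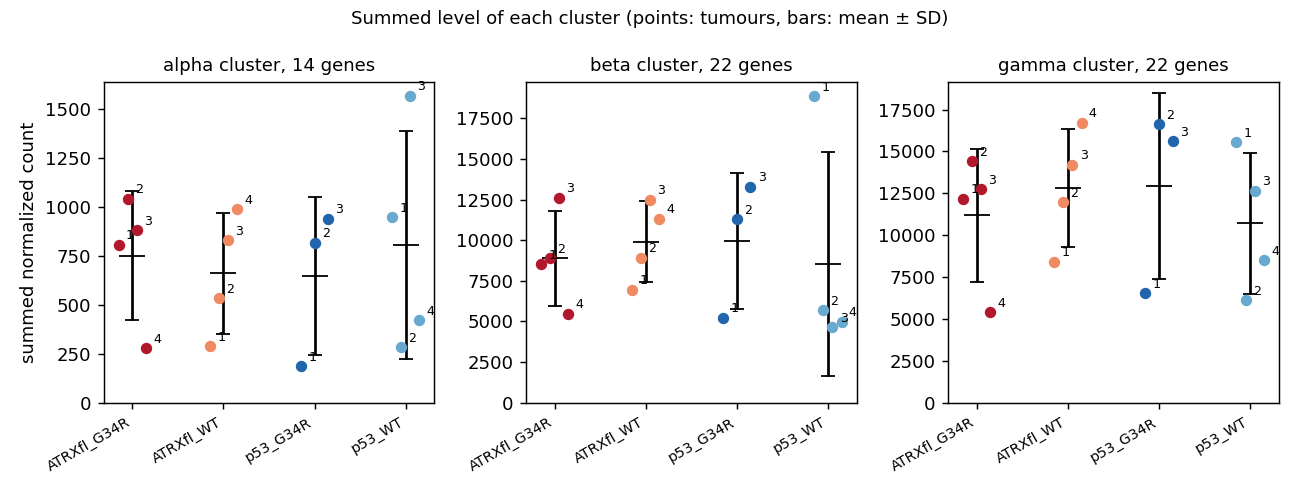
Summed normalized count (vertical axis) of the alpha, beta and gamma clusters in each tumour, by group, with points numbered by replicate and black bars at the mean ± SD. The groups overlap in all 3 panels, and p53_WT replicate 1 (18859) and replicate 3 (1565) are the highest points of the beta and alpha panels.

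The log2 differences of the cluster sums were small beside that spread. Between ATRXfl_G34R and ATRXfl_WT they were 0.17 for alpha, -0.18 for beta and -0.25 for gamma, and between p53_G34R and p53_WT they were -0.31, 0.38 and 0.25 for the same clusters. Between ATRXfl_G34R and p53_G34R they were 0.37, -0.12 and -0.19, between ATRXfl_WT and p53_WT -0.12, 0.45 and 0.31, and between ATRXfl_G34R and p53_WT 0.05, 0.27 and 0.06. With single tumours left out in turn, the alpha difference between ATRXfl_G34R and p53_G34R lay between -0.38 and 0.79, and the beta difference between p53_G34R and p53_WT between 0.12 and 0.86.

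Pcdhgc3, a c-type gamma gene, was the highest member per length, with a mean of 3046 normalized counts per kilobase of exon that it shares with no other gene, against 315 for Pcdhgb8 (annotated as a polymorphic pseudogene), 307 for Pcdhgb1, 284 for Pcdhb10 and 275 for Pcdhb5. Its level was 5542, 7230, 5417 and 3390 normalized counts in ATRXfl_G34R tumours, 4504, 6310, 6838 and 7280 in ATRXfl_WT tumours, 4189, 7524 and 8020 in p53_G34R tumours and 7182, 3791, 2128 and 3845 in p53_WT tumours. It was lowest in the p53_WT library rich in neuron markers, where it made up 16.8% of the gamma sum, against 42.5% to 64% in the other 14 tumours.

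Pcdhgc5 and Pcdhac2, c-type genes known from mature neurons, had the opposite pattern in that library. Pcdhgc5 stood at 515, 300, 667 and 135 in ATRXfl_G34R tumours, 165, 605, 573 and 441 in ATRXfl_WT tumours, 334, 1003 and 536 in p53_G34R tumours and 312, 135, 5164 and 406 in p53_WT tumours. The 5164 of p53_WT replicate 3 was 5.15-fold above the next tumour, and the limma log2 change of Pcdhgc5 between ATRXfl_G34R and p53_WT was -0.66 with that library and 0.41 without it. Pcdhac2 stood at 290, 263, 309 and 66.3 in ATRXfl_G34R tumours, 52.8, 194, 277 and 180 in ATRXfl_WT tumours, 104, 319 and 374 in p53_G34R tumours and 229, 269, 770 and 165 in p53_WT tumours. The variable alpha gene Pcdha12 was also highest there, at 244 against at most 46.1 in the other 14 tumours. Markers of neurons, astrocytes, mature oligodendrocytes and microglia were all highest in that library, and their part in these 3 values was not tested. The third gamma c-type gene, Pcdhgc4, ranged from 140 to 951 and stood at 308 in p53_WT replicate 3, and Pcdhac1 ranged from 0 to 58.1.

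**Figure D2:**
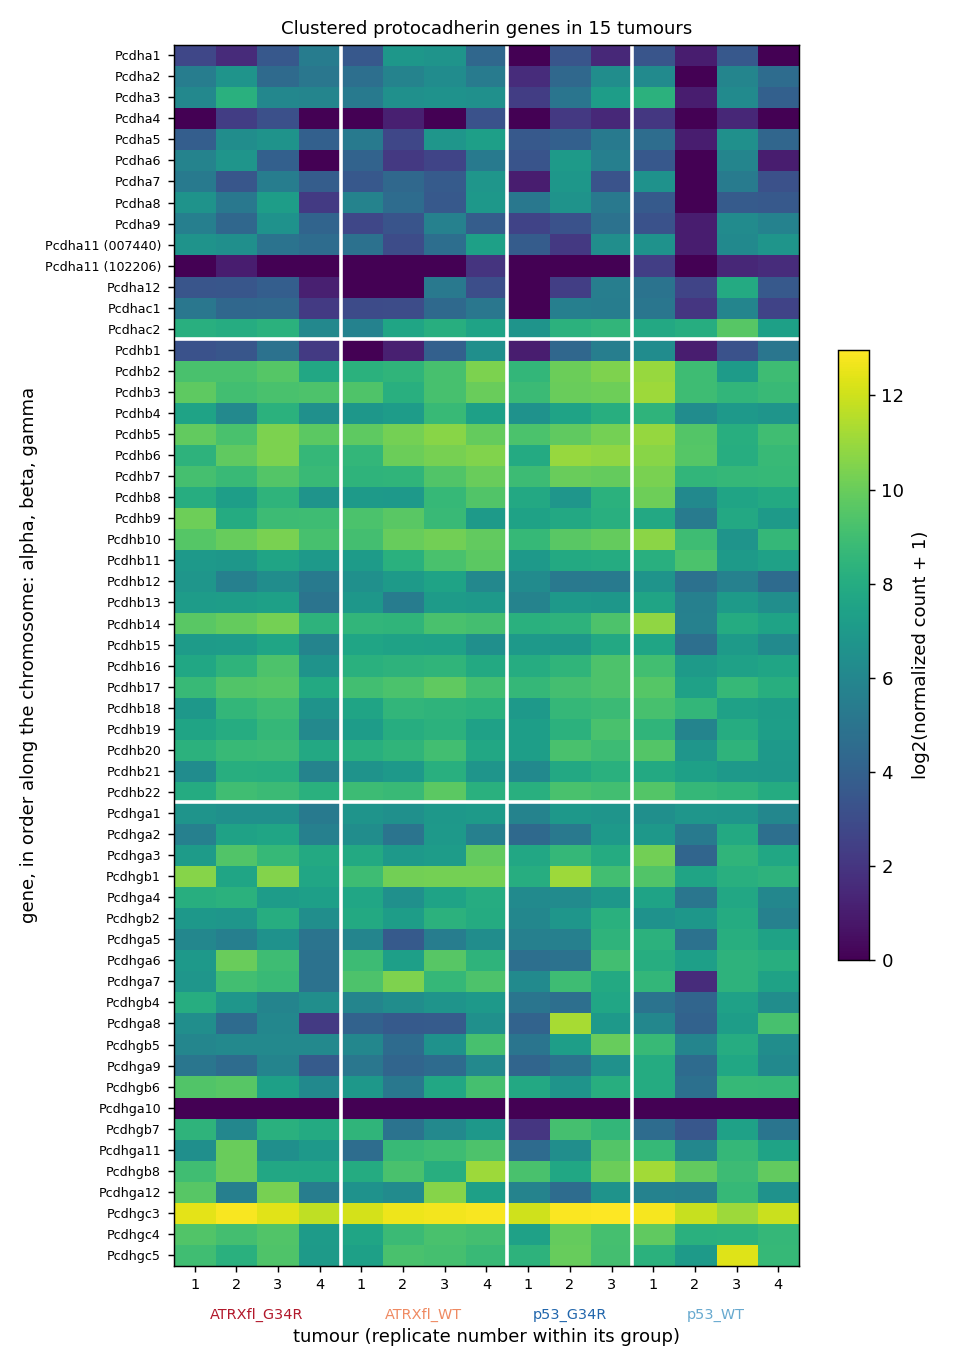
Level of the 58 genes (rows, in order along the chromosome) in the 15 tumours (columns, numbered by replicate within their group), coloured by log2(normalized count + 1). Pcdhgc3 is the bright row near the bottom, Pcdhgc5 is bright in p53_WT replicate 3 alone (5164), and the variable alpha genes are dark in p53_WT replicate 2, where they sum to 10.6.

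Variable alpha genes were nearly absent from 1 tumour. They summed to 482, 757, 550 and 207 normalized counts in ATRXfl_G34R tumours, 230, 331, 530 and 773 in ATRXfl_WT tumours, 81.1, 448 and 521 in p53_G34R tumours and 683, 10.6, 737 and 252 in p53_WT tumours. In p53_WT replicate 2, at 10.6, the c-type gene Pcdhac2 still had 269 normalized counts, so that c-type genes made up 96.2% of the alpha sum, against 20.6% to 56.2% in the other 14 tumours. The same tumour held 2.13 of the gamma gene Pcdhga7 and 18.1 of Pcdhga3, the lowest values of both, while its gamma gene Pcdhgb8 stood at 929. Its neuron markers (537), astrocyte markers (9691) and microglia and macrophage markers (3084) were also the lowest of the series. Their part in these values was not tested.

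Not every gene could be read in these counts. Alpha and gamma genes share their constant exons, and reads there cannot be given to 1 gene, so a member's count comes mainly from its own first exon. Pcdhga10 has 0 exonic bases of its own in this annotation and 0 reads in all 15 tumours. Pcdha4 has 404 such bases and reached at most 8.52 normalized counts, and 1 of the 2 entries named Pcdha11 (ENSMUSG00000102206, 1268 bases) reached at most 4.34. The other entry of that name (ENSMUSG00000007440) is placed where RefSeq names Pcdha10, and ranged from 1.06 to 164. Of the 58 genes, 55 passed the filter of a mean of at least 10 over the 15 tumours (12 alpha, 22 beta and 21 gamma).

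The make-up of each cluster differed from tumour to tumour. Per kilobase of unshared exon, the leading gene of the variable alpha set held 20.1% to 55.8% of the set in a tumour (median 34.2%), and 7 different genes led it in at least 1 tumour. Pcdha3 led in 4 tumours, Pcdha8 in 4, Pcdha5 in 2, Pcdha12 in 2, and Pcdha1, Pcdha6 and Pcdha11 (ENSMUSG00000007440) in 1 each. The share of 55.8%, held by Pcdha12 in p53_WT replicate 2, rests on few reads, since the gene had 5.32 normalized counts there.

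Among beta genes the leading gene held a smaller share than in the other sets. The sets differ in size (22 beta, 11 variable alpha and 18 gamma A and B genes), and a larger set tends to a smaller leading share. The leading beta gene held 9.49% to 18% of the beta set (median 14.2%), with Pcdhb5 first in 5 tumours, Pcdhb2 in 4, Pcdhb10 in 3 and Pcdhb6, Pcdhb7 and Pcdhb9 in 1 each. Of the gamma A and B genes, the leading one held 15.4% to 49.5% (median 26.4%). Pcdhgb8 led in 5 tumours, Pcdhgb1 in 3, Pcdhga11 in 3, Pcdhga7 in 2, and Pcdhga8 and Pcdhgb7 in 1 each.

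The effective number of genes, the inverse of the sum of squared shares, puts this in 1 value per tumour. Its median was 5.2 for the 11 variable alpha genes with at least 1000 bases of their own (range 2.9 to 7.1), 12.4 for the 22 beta genes (11.0 to 17.4) and 7.8 for 18 gamma A and B genes (3.7 to 13.9). The highest beta and gamma values belong to the library rich in neuron markers, and without it the ranges were 11.0 to 14.1 and 3.7 to 9.6. By group, the medians of the effective number of variable alpha genes were 6.0 for ATRXfl_G34R, 6.6 for ATRXfl_WT, 4.2 for p53_G34R and 4.0 for p53_WT tumours, with overlapping ranges of 4.7 to 7.1, 4.3 to 6.8, 4.1 to 6.5 and 2.9 to 5.2. The lowest values of the intact groups rest on few reads. They were those of p53_WT replicate 2 (2.9) and p53_G34R replicate 1 (4.1), where these genes summed to 10.6 and 81.1 normalized counts. For gamma A and B genes the group medians were 7.8, 8.0, 6.0 and 7.3 in the same order of groups, and for beta genes 12.8, 12.9, 12.4 and 12.9.

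For alpha and beta genes, the make-up shared by tumours of the same group was close to that shared by tumours of different groups. The share of the make-up common to a pair of tumours had a median of 51.5% over the 21 pairs within a group and 51.6% over the 84 pairs between groups for variable alpha genes. The medians were 79.4% within and 78.8% between groups for beta genes, and 60% within and 55.9% between groups for gamma A and B genes, with ranges of 37.5% to 72.7% within and 26.2% to 81.2% between groups. Pairs share tumours, so these are descriptions.

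**Figure D3:**
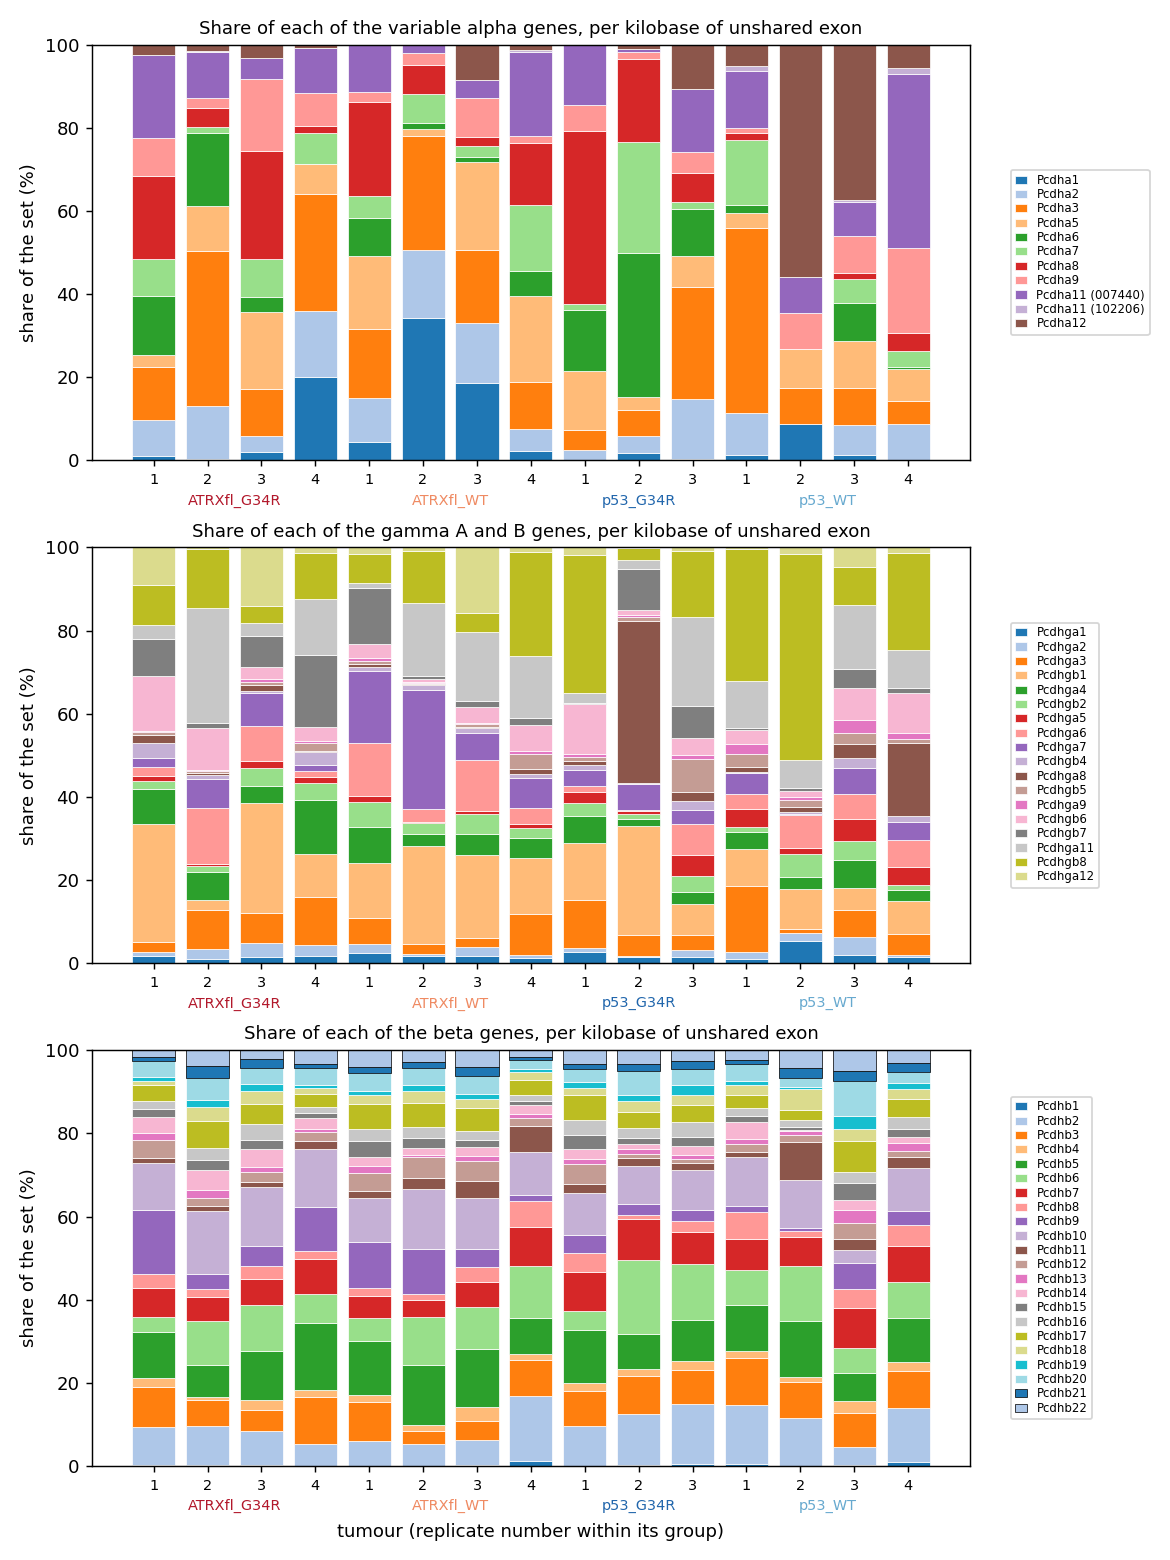
Share of each gene (vertical axis, percent of the set, per kilobase of unshared exon) among variable alpha, gamma A and B, and beta genes in each tumour. The colour that takes most of a bar changes between tumours of the same group for alpha and gamma genes, as with Pcdhga8 in p53_G34R replicate 2 (39%) and Pcdhgb8 in p53_WT replicate 2 (49.5%), and less so for beta genes.

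Single gamma genes reached high levels in 1 or a few tumours. Pcdhga8 stood at 83.6, 22.4, 62.2 and 3.62 normalized counts in ATRXfl_G34R tumours, 15.6, 11.7, 12.2 and 89 in ATRXfl_WT tumours, 16.6, 2509 and 123 in p53_G34R tumours and 64, 15.9, 150 and 588 in p53_WT tumours. The 2509 of p53_G34R replicate 2 was 4.26-fold above the next tumour and 40.3-fold above the median of 62.2. Pcdhga12 stood at 788, 47.8, 1288 and 43.4 in ATRXfl_G34R tumours, 96.8, 75.9, 1548 and 163 in ATRXfl_WT tumours, 54, 23.4 and 102 in p53_G34R tumours and 53.1, 48.9, 409 and 95.5 in p53_WT tumours. It was thus at 788 or higher in 3 floxed tumours, while the other 5 floxed tumours lay at 163 or lower. Pcdhgb5 reached 988 in p53_G34R replicate 3 and 581 in ATRXfl_WT replicate 4, against a median of 67.5.

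The spread between tumours of the same group was measured as the residual SD of log2(normalized count + 1) in a fit of the 4 groups. Its median was 1.96 for the 10 variable alpha genes tested, 1.44 for the 18 gamma A and B genes, 0.96 for the 3 gamma c-type genes and 0.89 for the 22 beta genes, against 0.60 for all 17776 genes tested and 0.78 for the 8494 genes whose mean level lay between the 5th and the 95th percentile of the members' mean levels. Without p53_WT replicate 3 these were 1.98, 1.47, 0.89 and 0.91, against 0.54 for all genes. Pcdha6 (2.35), Pcdhga8 (2.26), Pcdha12 (2.25) and Pcdhb1 (2.25) had the largest values among members. Pcdhga1, the first gamma gene, had the smallest (0.49), followed by Pcdhgc3 (0.52) and Pcdhb22 (0.57), and these 3 were the members below the median of genes of all levels (0.60). Spread depends on level. Among genes of like level the median was 0.873 for Pcdhga1, 0.396 for Pcdhgc3 and 0.531 for Pcdhb22, so the last 2 were above it. Some other members were below it, as Pcdhb12 (0.75 against 0.904). At the levels of the variable alpha genes it lay between 0.897 and 1.272. Pcdhga1 stayed between 38.6 and 133 normalized counts in all 15 tumours.

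**Figure D4:**
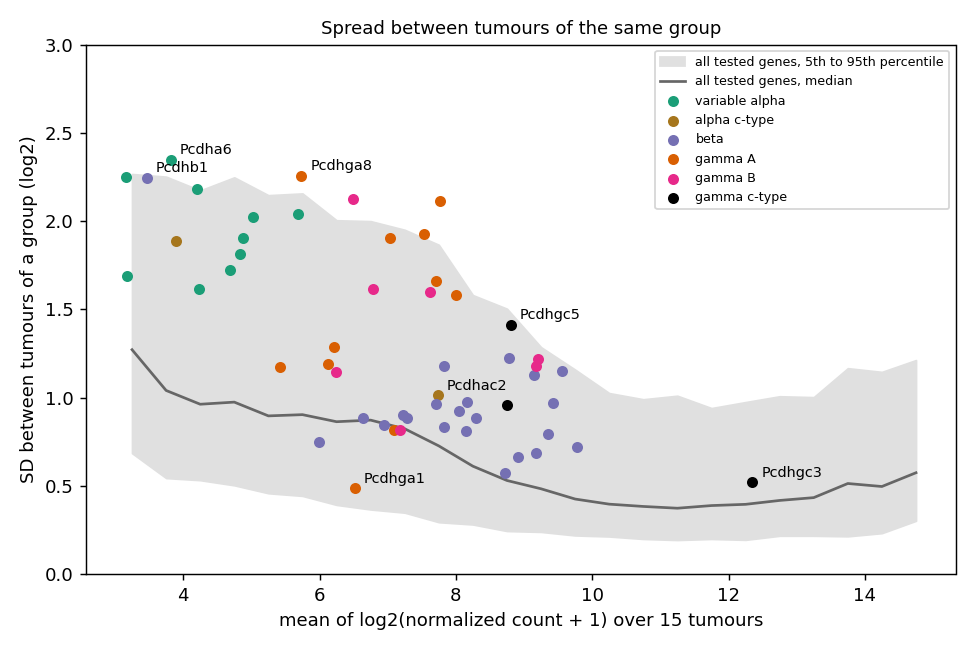
Residual SD between tumours of the same group (vertical axis, log2) against mean level (horizontal axis, mean of log2(normalized count + 1)) for the 55 tested members, coloured by type, with the median (line) and the 5th to 95th percentile (band) of all tested genes. Variable alpha and most gamma A and B genes lie above the line, and Pcdhga1 (0.49) lies below it.

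Floxed tumours were first set against intact ones over all 15 tumours, with the histone as a term. By limma (Benjamini-Hochberg adjusted over all genes) 0 of the 55 members tested passed, where 0.107% of all genes did. At an unadjusted p under 0.05 there were 6 members, against 5.48% of all genes. Of these, 4 were higher and 2 lower in floxed tumours, against 3.22% and 2.26% of all genes, and 7 reached that level without p53_WT replicate 3, where 8.16% of all genes did. edgeR called 0 members (0.0731% of all genes), DESeq2 called 1 (0.428% of all genes), and 0 members had groups that do not overlap (0.135% of all genes). The median log2 change was 0.98 for variable alpha genes (8 of 10 positive), 0.05 for beta genes (13 of 22 positive) and 0.38 for gamma A and B genes (13 of 18 positive), against 0.00 for all genes. These medians moved with single tumours. That of variable alpha genes was 1.14 without p53_WT replicate 3, 0.40 without p53_WT replicate 2 and 0.28 by both DESeq2 and edgeR (7 of 10 positive), and that of gamma A and B genes lay between 0.13 and 0.66 when any 1 tumour was left out. The beta median lay between -0.07 and 0.21 and was -0.04 without p53_WT replicate 3. In all, 36 of the 55 members had a positive log2 change, against 49.7% of all genes. That count was 29 without p53_WT replicate 2, 34 without p53_WT replicate 3 and 30 by both DESeq2 and edgeR. Here and below, members are read in the same tumours, so counts of signs are descriptions and not independent observations.

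Pcdhb9 and Pcdha1 had the smallest p-values of the members for Atrx. Pcdhb9, a single-exon beta gene (chromosome 18, 37400855 to 37403909), stood at 1114, 252, 477 and 485 normalized counts in ATRXfl_G34R tumours, 633, 813, 443 and 135 in ATRXfl_WT tumours, 178, 227 and 294 in p53_G34R tumours and 229, 41.5, 227 and 134 in p53_WT tumours. All intact tumours lay at 294 or lower and 6 of 8 floxed tumours at 443 or higher, so the groups overlap through ATRXfl_G34R replicate 2 and ATRXfl_WT replicate 4. The log2 change was 1.43 (SE 0.45; limma adjusted p = 0.636), it stayed between 1.14 and 1.68 when any 1 tumour was left out, and it was 1.54 without p53_WT replicate 3.

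Pcdha1, the first variable alpha gene, stood at 5.83, 2.03, 10.9 and 42.2 in ATRXfl_G34R tumours, 10.8, 114, 103 and 18.9 in ATRXfl_WT tumours, 0, 9.52 and 1.77 in p53_G34R tumours and 9.76, 1.06, 11.1 and 0 in p53_WT tumours. Its highest values thus came from 2 ATRXfl_WT tumours, and 11 of the 15 tumours were at 11.1 or lower. The log2 change was 2.59 (SE 0.82; limma adjusted p = 0.636).

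Of the other members at an unadjusted p under 0.05, the gamma gene Pcdhga4 averaged 202 ± 73.4 in floxed tumours (n = 8) and 109 ± 68.1 in intact tumours (n = 7), with a log2 change of 1.03 (SE 0.40). The beta gene Pcdhb12 averaged 93.7 ± 47.2 in floxed and 51 ± 29.7 in intact tumours (log2 0.91, SE 0.40), and it overlaps a gene outside the family. Pcdhga5 averaged 54 ± 26.8 in floxed and 178 ± 138 in intact tumours (log2 -1.35, SE 0.61). Their limma adjusted p-values were 0.820, 0.904 and 0.910.

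Pcdhga8 was the member called by DESeq2, with a log2 change of -3.47 and an adjusted p = 0.0186, against a limma log2 change of -2.40 (SE 1.01; adjusted p = 0.883) and an edgeR adjusted p = 0.622. Over the other settings its adjusted p ran from 0.597 to 0.99973. It averaged 37.5 ± 34.9 in floxed tumours and 495 ± 910 in intact tumours, where the values of 2509 and 588 given above set the mean. Without p53_G34R replicate 2, the tumour at 2509, its limma log2 change was -1.60.

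**Figure D5:**
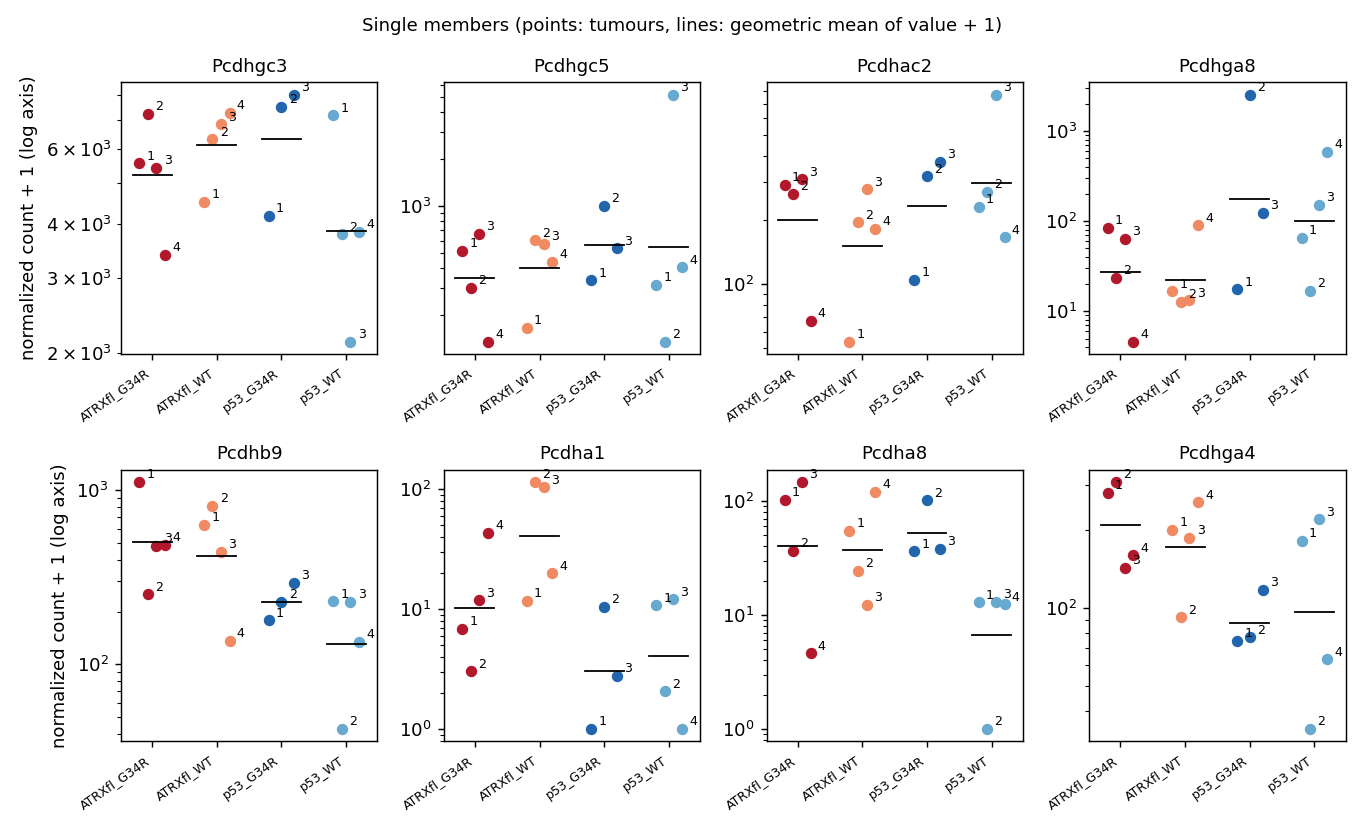
Normalized count + 1 (vertical log axis) of 8 members in each tumour, by group, with points numbered by replicate and lines at the geometric mean. Pcdhb9 lies at 294 or lower in the intact tumours, Pcdhga8 peaks at 2509 in p53_G34R replicate 2, and Pcdhgc5 and Pcdhac2 peak in p53_WT replicate 3.

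The mutant histone was compared with wild-type H3.3 over all 15 tumours, with Atrx status as a term. No member passed by limma (0 of 55), where 0% of all genes did, and 1 had an unadjusted p under 0.05, against 2.37% of all genes. edgeR (0% of all genes) and DESeq2 (0.0198%) also called 0 members, and 0 members had groups that do not overlap (0.0113% of all genes). A positive log2 change was found for 29 of 55 members, against 49.2% of all genes. That count was 20 without p53_WT replicate 2 and 33 without p53_WT replicate 3. The median log2 change was -0.08 for variable alpha genes, 0.12 for beta genes and -0.13 for gamma A and B genes, and it changed sign in each of the 3 sets with single tumours left out (-0.59 to 0.44, -0.06 to 0.29 and -0.37 to 0.17). That 1 member was the beta gene Pcdhb11, at 127, 115, 191 and 127 normalized counts in ATRXfl_G34R tumours, 139, 303, 599 and 829 in ATRXfl_WT tumours, 127, 235 and 250 in p53_G34R tumours and 285, 617, 134 and 168 in p53_WT tumours. The ATRXfl_G34R tumours were low and close together, and the groups overlap through ATRXfl_WT replicate 1 and 2 of the p53_WT tumours. Its log2 change over the 15 tumours was -0.96 (SE 0.42; limma adjusted p = 0.999).

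Within floxed tumours, ATRXfl_G34R was set against ATRXfl_WT (n = 4 each). By limma 0 of 54 members passed (0% of all genes), and 2 had an unadjusted p under 0.05, against 2.79% of all genes. edgeR (0% of all genes), DESeq2 (0.151%) and the authors' deposited table (0.182%) also hold 0, and 0 members had groups that do not overlap (2.16% of all genes). Those 2 were Pcdhb11 (log2 -1.46, SE 0.53) and Pcdhga7 (log2 -2.05, SE 0.84), with a limma adjusted p = 0.99968 for both. The authors' deposited table gives Pcdhb11 a log2 change of -1.74 and an adjusted p = 0.207. Pcdhga7, a gamma A gene, stood at 113, 527, 442 and 28.9 in ATRXfl_G34R tumours and at 641, 1424, 393 and 657 in ATRXfl_WT tumours, which overlap through ATRXfl_WT replicate 3. The log2 change was positive for 23 of 54 members, against 49.9% of all genes, and for 6 of 22 beta genes, whose median was -0.18 and lay between -0.49 and 0.11 with single tumours left out.

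Within intact tumours, p53_G34R (n = 3) was set against p53_WT (n = 4). Again 0 of 54 members passed by limma (0% of all genes), and 1 had an unadjusted p under 0.05 against 1.47% of all genes (2 without p53_WT replicate 3, against 2.63%). edgeR (0% of all genes), DESeq2 (0.0794%) and the authors' deposited table (0.0578%) also hold 0. That member was Pcdha8, a variable alpha gene, at 35.3, 101 and 37.3 in p53_G34R tumours and 11.9, 0, 12 and 11.4 in p53_WT tumours, which do not overlap. No other member had groups that do not overlap, where 2.61% of all genes did. The log2 change of Pcdha8 was 2.96 (SE 1.06, limma adjusted p = 0.99999). It was 3.27 without p53_WT replicate 3 and 2.04 without p53_WT replicate 2, the tumour at 0. Where Atrx was floxed, Pcdha8 stood at 102, 35.6, 146 and 3.62 in ATRXfl_G34R tumours and 53.8, 23.4, 11.3 and 120 in ATRXfl_WT tumours, which overlap. The test of the difference of the histone effects, floxed minus intact, gave a log2 value of -2.86 (SE 1.64; limma adjusted p = 0.99959). Between p53_G34R and p53_WT the log2 change was positive for 33 of 54 members, against 50.0% of all genes. It was positive for 24 members without p53_WT replicate 2 and for 38 without p53_WT replicate 3. Of the beta genes 18 of 22 were positive, with a median of 0.47. That median was 0.19 without p53_WT replicate 3 (16 of 22 positive), 0.20 without p53_WT replicate 2, 0.93 without p53_WT replicate 1 and 0.16 by DESeq2 (15 of 22 positive).

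That difference between the histone effect in floxed and in intact tumours was tested for all members. Of 55 members, 0 passed by limma (0% of all genes) and 0 had an unadjusted p under 0.05, against 2.05% of all genes. edgeR (0% of all genes) and DESeq2 (0.0647%) called 0. The smallest p belonged to Pcdhgc3 (log2 -0.95, SE 0.51, adjusted p = 0.99959). The value was positive for 20 of 55 members, against 49.0% of all genes. It was positive for 29 members without p53_WT replicate 2, for 19 without p53_WT replicate 3 and for 22 by DESeq2. Of the beta genes 3 of 22 were positive, with a median of -0.63. That median was -0.47 without p53_WT replicate 3 (5 of 22 positive) and -1.09 without p53_WT replicate 1.

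With H3.3G34R present, ATRXfl_G34R (n = 4) was set against p53_G34R (n = 3). By limma 0 of 55 members passed (0.0229% of all genes), and 2 had an unadjusted p under 0.05, against 3.39% of all genes. edgeR (0% of all genes), DESeq2 (0.486%) and the authors' deposited table (0.538%) hold 0 as well. The log2 change was positive for 25 of 55 members, against 50.0% of all genes. Pcdhga4 stood at 279, 307, 142 and 159 in ATRXfl_G34R tumours and 73.8, 76.1 and 117 in p53_G34R tumours. These do not overlap, and it was the 1 member of which this holds, against 4.64% of all genes. Its log2 change was 1.26 (SE 0.40; limma adjusted p = 0.99990). The other was Pcdhb9, with a log2 change of 1.14 (SE 0.47).

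With wild-type H3.3, ATRXfl_WT was set against p53_WT (n = 4 each). None of 55 members passed by limma (0.0335% of all genes), and 4 had an unadjusted p under 0.05, against 3.76% of all genes. All 4 were higher in ATRXfl_WT, against 2.07% of all genes, and 7 members, again all higher, reached that level without p53_WT replicate 3, where 6.79% of all genes did and 3.62% were higher. edgeR (0.0112% of all genes), DESeq2 (0.383%) and the authors' deposited table (0.352%) hold 0. The log2 change was positive for 37 of 55 members, against 49.5% of all genes. It was positive for 31 members without p53_WT replicate 2, for 40 without p53_WT replicate 3 and for 29 by both DESeq2 and edgeR. The gamma gene Pcdhgb1 stood at 498, 1203, 1242 and 1230 in ATRXfl_WT tumours and at 691, 190, 287 and 334 in p53_WT tumours, which overlap through 1 tumour of each group. Its log2 change was 1.53 (SE 0.46; limma adjusted p = 0.975) and 1.46 without p53_WT replicate 3. Pcdha1 (log2 3.33, SE 1.10), Pcdha8 (2.47, SE 1.05) and Pcdhb9 (1.67, SE 0.71) were the other 3. Pcdhga7 was the 1 member with groups that do not overlap, against 2.65% of all genes, at 641, 1424, 393 and 657 in ATRXfl_WT tumours and 385, 2.13, 333 and 174 in p53_WT tumours.

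Both changes together were compared with neither, ATRXfl_G34R against p53_WT (n = 4 each). By limma 0 of 55 members passed (0.0227% of all genes), and 2 had an unadjusted p under 0.05 against 4.37% of all genes (6 of 54 without p53_WT replicate 3, against 8.29%). edgeR (0.0113% of all genes), DESeq2 (0.328%) and the authors' deposited table (0.380%) hold 0. The log2 change was positive for 36 of 55 members, against 49.2% of all genes. It was positive for 23 members without p53_WT replicate 2, for 33 of 54 without p53_WT replicate 3 and for 32 by DESeq2. Pcdhb9 was the 1 member whose groups did not overlap, against 2.94% of all genes, with a log2 change of 1.95 (SE 0.64; limma adjusted p = 0.999). Pcdhgb7, a gamma B gene, stood at 343, 63, 304 and 242 in ATRXfl_G34R tumours and 22.8, 10.6, 171 and 32.2 in p53_WT tumours, with a log2 change of 2.51 (SE 0.87). That change lay between 1.97 and 3.26 when any 1 tumour was left out, and the 3.26 was without p53_WT replicate 3. The comparisons share groups, so Pcdhb9, Pcdha1 and Pcdha8 recur in them with the same tumours.

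Regulators of the clusters were read from a list of 32 genes for looping and silencing, of which 31 were tested. By limma, edgeR and DESeq2 0 passed in each of the 8 comparisons and terms, and by limma 0 to 2 had an unadjusted p under 0.05 in each, with the 2 between ATRXfl_WT and p53_WT, where 3.76% of all genes did. Smchd1, a silencing protein that binds these clusters and the inactive X, had the smallest p of the list. It stood at 2233, 2702, 2590 and 2029 normalized counts in ATRXfl_G34R tumours and 1180, 1276, 1952 and 1601 in ATRXfl_WT tumours (log2 0.69, SE 0.21; limma adjusted p = 0.99968). These do not overlap, as held for 2.16% of all genes in that pair. In intact tumours it stood at 2557, 2189 and 3327 in p53_G34R and 2376, 4001, 1691 and 3419 in p53_WT, and the Atrx term was -0.55 (SE 0.21; limma adjusted p = 0.820). The loop factor gene Ctcf stayed between 2453 and 4003 and the cohesin gene Rad21 between 4816 and 16522 over the 15 tumours. Xist, the RNA of the inactive X, was at most 27.7 in 5 of 8 floxed and 2 of 7 intact tumours and at least 10675 in the others, and with log2 Xist as a covariate 0 members passed by limma.

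The 12 non-clustered protocadherins, which are encoded outside the clusters and each have 1 gene, gave 0 calls by limma and edgeR. By limma 0 or 1 had an unadjusted p under 0.05 in each comparison or term, where 1.47% to 5.48% of all genes did. DESeq2 gave 1 call, between ATRXfl_WT and p53_WT, where it called 0.383% of all genes. Pcdh8, a protocadherin induced by neuronal activity, had the smallest p, at 22.5, 31.5, 21.8 and 92.8 in ATRXfl_WT tumours and 512, 74.4, 1190 and 158 in p53_WT tumours (log2 -3.04, SE 0.88; limma adjusted p = 0.975). It was the gene called by DESeq2 (log2 -3.52, adjusted p = 0.0129), and its highest value was that of the library rich in neuron markers. Of 23 partners of the clustered protocadherins, 0 passed by limma, edgeR and DESeq2, and by limma 0 to 4 had an unadjusted p under 0.05, with the 4 for the Atrx term, where 5.48% of all genes did. Wasf1, a subunit of the WAVE complex that drives actin branching, averaged 1747 ± 334 in floxed tumours (n = 8) and 2846 ± 1057 in intact tumours (n = 7), with a log2 change of -0.64 (SE 0.20, limma adjusted p = 0.636). The highest Wasf1 value of the 15 tumours, 4880, was also that of the library rich in neuron markers.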

How the data were processed

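RNA of 15 mouse tumours was sequenced, with a TruSeq mRNA kit according to the labels' protocols. The submitters' processing notes name STAR 2.7, HTSeq, DESeq2 and mm10. The annotation, strand setting and treatment of shared reads were not stated there. For each of 5 pairs of groups the authors deposited a table of 54232 genes. The library columns deposited hold a signal, namely reads over a size factor. The authors' other columns, as deposited, are a log2 fold change with its error, a test score, a p-value and its adjusted form. In 35 library columns all values (100% in each, within 0.01) were whole multiples of 1 read, and the reads were recovered by division. In 3 more columns the value of 1 read was near 1, and they were not part of that check. Symbols of GENCODE vM21 matched 99.7% of gene IDs.

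Pairs of groups were tested with limma 3.58.1 (trend and robust, R 4.3.3) on log2(value + 1), where the pseudocount of 1 understates the change of low genes. Genes entered at a mean of 10 or more, and a call was an adjusted p (Benjamini-Hochberg, all genes) under 0.05. The Atrx, histone and interaction terms used all 15 libraries, with recovered reads scaled by the median of ratios, as did all sums, shares and single values, so that means in pairs differ slightly from them. Each fit was also run on simulated data with known changes and no library set apart from the others, and the outcome is not reported here. Recovered reads were also tested with edgeR 4.0.16 and DESeq2 1.42.0. Other alternatives were no filter, pseudocounts of 0.5 and 5, TMM scaling, log2 Xist as a covariate, all 4 groups in 1 fit, averaging of libraries whose titles share a first code, the mean of log2 values in place of sums, and each library left out. Leaving out p53_WT replicate 3 together with ATRXfl_G34R replicate 3, and plain values in place of values per kilobase, were chosen after seeing the data. As a check for repeated libraries, 21 pairs within groups gave a chi-square per degree of freedom of at least 89.8, where repeated sequencing gives about 1.

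The members, lists and tests were chosen with earlier results of these data known. The rule named the 4 highest members per cluster, up to 4 with the smallest p per comparison, every called member, the leading member of each tumour, and up to 3 genes per other list and comparison. Pcdhga12, Pcdhga1, Pcdhga3, Pcdhga5, Pcdhga10, Pcdhgb5, Pcdhgc4, Pcdha4, Pcdhac1, Pcdhb1, Pcdhb12, Pcdhb22, Ctcf and Rad21 were named after their values were seen.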

Additional observations from a re-analysis of the deposited data

Results flagged for a closer look

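In groups of 4 tumours, a tumour was marked when it stood far from the other 3 of its group, and 15 of 99 groups looked at were marked. Chance marks about 1 in 20 independent groups, but these genes were named partly for a high value in a single tumour or a small p, and share their tumours, so that rate does not apply to them. In p53_WT replicate 2, Pcdha8 (0), Pcdha11 (ENSMUSG00000007440; 1.06) and Pcdhga7 (2.13) were low. In p53_WT replicate 1, the beta sum (18859), Pcdhb3 (2134) and Pcdhb7 (1321) were high. In ATRXfl_G34R replicate 2, Pcdha3 (295) and Pcdhga11 (1019) were high. In ATRXfl_G34R replicate 4, Pcdhac2 (66.3), Pcdha12 (1.21) and Pcdhb2 (219) were low. In ATRXfl_WT replicate 1, Pcdha3 (39.1), Pcdhgb1 (498) and Pcdhga11 (23.5) were low. In ATRXfl_WT replicate 4, Pcdhga8 (89) was high. All values are normalized counts.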

How the results depend on the processing

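The count of members called by limma was 0 in all 8 comparisons and terms as reported, and stayed 0 under every alternative run except DESeq2, which called 1 member for the Atrx term (Pcdhga8). With each library left out in turn, the counts were 0 to 0, and members at an unadjusted p under 0.05 numbered 2 to 12 between ATRXfl_WT and p53_WT, 2 to 6 between ATRXfl_G34R and p53_WT, 1 to 9 between ATRXfl_G34R and p53_G34R, 0 to 3 between ATRXfl_G34R and ATRXfl_WT, 0 to 5 between p53_G34R and p53_WT, 3 to 9 for the Atrx term, 0 to 2 for the histone term and 0 to 3 for the interaction. The share of all genes at that level also moved when a library was left out. Without p53_WT replicate 3 it was 6.79% (3.76% with all libraries) between ATRXfl_WT and p53_WT. It was 8.29% (4.37%) between ATRXfl_G34R and p53_WT and 8.16% (5.48%) for the Atrx term. Shares with other libraries left out are not given, so these ranges are no result about the members. The median effective number of beta genes was 12.4 per kilobase and 14.1 with plain values. Differences of cluster sums changed sign when single libraries were left out, as between ATRXfl_G34R and p53_G34R for alpha (-0.38 to 0.79), and none moved by more than the spread between tumours. No paired analysis was possible because the labels pair no tumour of a group with a tumour of another group. Members with few bases of their own are limited by depth, and the number of tumours, 3 or 4 in each group, limits the precision of all others.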
